A study of Mus musculus with 26 samples.

Results

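SR proteins and hnRNPs are the main families of proteins that bind pre-mRNA and set which exons are kept. Their genes were taken by symbol, as every gene named Srsf with a number or named with the prefix Hnrnp. This gave 31 genes, 11 SR genes and 20 hnRNP genes, of the 20430 gene symbols measured in RNA, and the same 31 were among the 19941 symbols measured in ribosome footprints. Srsf12, an SR gene, held 0 to 9 expected counts in the 16 RNA libraries and was left out of all tests by the filter on low counts. The other 30 genes (10 SR, 20 hnRNP) passed it in every fit, with 1052 to 64482 expected counts per RNA library and 61 to 6899 per footprint library.

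NIH3T3, an established line of mouse embryonic fibroblasts, was stressed in several ways and profiled by sequencing of polyA-selected RNA (16 libraries, 8 groups) and by ribosome profiling (10 libraries, 5 groups), in which the stretches of mRNA covered by ribosomes are sequenced. Heat was 44 °C for 2 h or 42 °C for 8 h, with an untreated control of its own. Oxidative stress by H2O2 and osmotic stress by KCl were each sampled at 2 h and 7 h and shared another untreated control. Footprints were analysed for the H2O2 and KCl groups and their control. No group carried a transgene or gene deletion according to the labels, and the sources used here do not give doses of H2O2 and KCl. Each group had 2 replicates, and the labels do not say whether these were separate cultures, so the p-values measure the spread between these samples, which may be technical.

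SR proteins have RNA recognition motifs and a tail rich in arginine and serine, and many of them bind exons and recruit the splicing machinery. Kinases of the SRPK and CLK families phosphorylate that tail. hnRNPs coat nascent transcripts, and many of them favour exon skipping or act in mRNA export, stability and translation. Many genes of both families control their own mRNA through exons that introduce a stop codon and send the transcript to nonsense-mediated decay. Counts per gene, as used here, sum all such transcripts and cannot separate them.

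RNA libraries held 24441877 to 45244430 expected counts and footprint libraries 1460751 to 5168537. The shallowest footprint library was H2O2 2 h replicate 1. Replicates correlated across genes at 0.994 to 0.996 in RNA and 0.957 to 0.978 in footprints (log2 CPM, genes not being independent replicates). Of 8 fibroblast markers, 8 were at 1 TPM or more in every RNA library (summed level 4147 to 11276 TPM). Epithelial (4 genes), leukocyte (3) and endothelial (2) markers summed to 7.89 to 19.6, 5.33 to 44.7 and 0 to 2.19 TPM. Singly, Ptprc and Cdh5 were at or below 0.05 and 0.09 TPM in every library, while Pecam1 reached 2.14 TPM and Cd68 44.7 TPM. Of the epithelial markers Krt18 was at 6.46 to 17.2 TPM, and Epcam, Cdh1 and Krt8 reached at most 1.12, 0.97 and 1.12 TPM.

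TPM, which corrects for transcript length and allows levels of different genes to be compared, placed hnRNP genes in the first 8 ranks of the control of the H2O2 and KCl experiment, with genes of both families mixed further down. Hnrnpa1, which encodes an abundant shuttling hnRNP, was highest at 1262 ± 116 TPM (SD, n = 2). It was followed by Hnrnpa2b1 (951 ± 57.4), Hnrnpab (872 ± 66.2), Hnrnpa3 (793 ± 74.9) and Hnrnpk (747 ± 8.61), and neighbours among these 4 lay within the summed SDs of each other. The highest SR gene was Srsf5 at 430 ± 24.4 TPM, in rank 9, and Srsf2 (398 ± 20.9) and Srsf3 (339 ± 1.95) came next. The lowest genes that were tested were Hnrnpll (87.8 ± 2.11) and Hnrnpd (83.1 ± 10.1), which did not differ beyond their spread. Srsf12 was at 0.055 ± 0.0071 TPM. Of the 30 neighbouring pairs in this order, 19 lay within the summed SDs of each other.

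The summed level of the hnRNP genes was 8488 and 9293 TPM in the 2 control libraries of that experiment, against 2200 and 2328 TPM for the SR genes. The ratio of SR to hnRNP RNA was thus 0.259 and 0.251. KCl libraries had 0.214 and 0.215 at 2 h, below both controls, but 0.287 and 0.290 at 7 h, above both. H2O2 libraries had ratios of 0.278 and 0.271 at 2 h and 0.279 and 0.274 at 7 h. In the heat experiment the ratio was 0.253 and 0.247 in controls, 0.277 and 0.280 at 44 °C, and 0.228 in both libraries at 42 °C. In each treated group both libraries lay on the same side of both of their controls. The ratios are given as values, without a test: an exact two-sided permutation test of 2 libraries against 2 cannot give a p below 0.333.

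**Figure D1:**
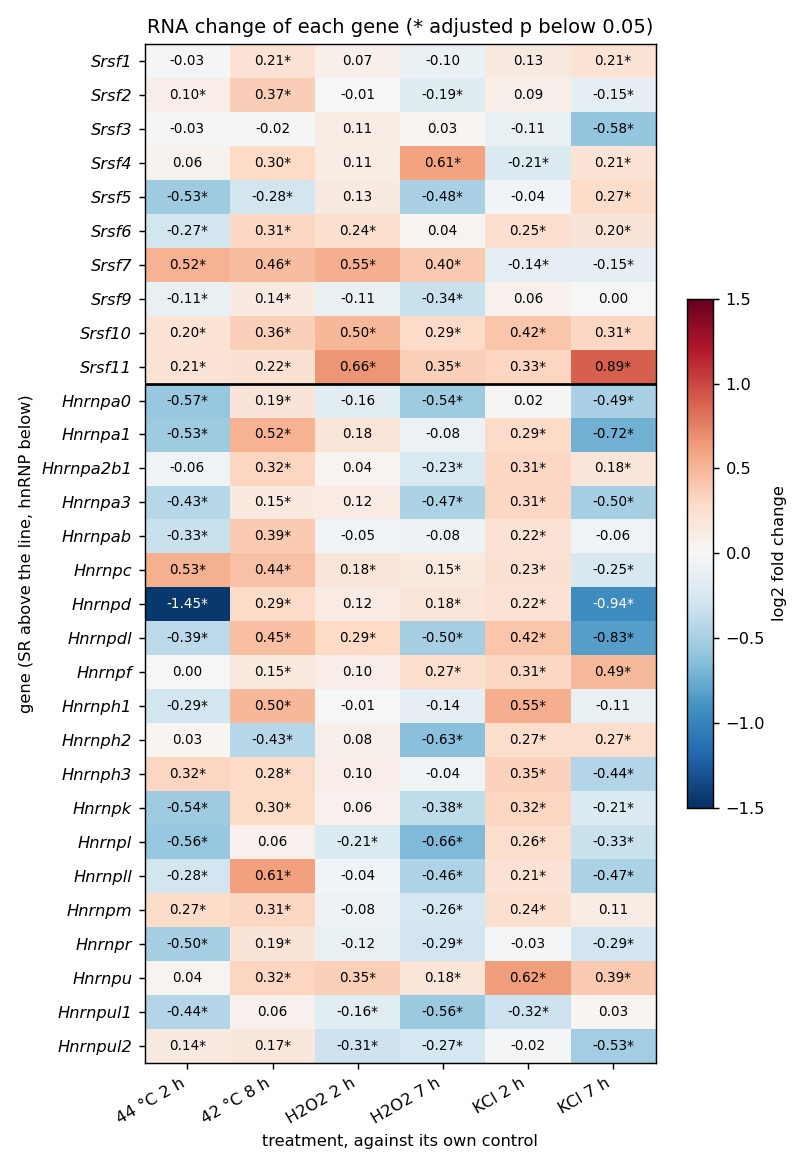
Log2 fold change in RNA of the 10 SR genes (above the line) and 20 hnRNP genes (below it) that were tested, in rows, for each of 6 treatments against its own control, in columns. Red is higher, blue is lower, and a star marks an adjusted p below 0.05. Hnrnpd at 44 °C is the lowest value (-1.45), and Srsf10 and Srsf11 are starred and red in each column.

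At 44 °C for 2 h the hnRNP genes were mostly lower and the SR genes were split. Of 20 hnRNP genes 4 rose and 12 fell, with a median log2 fold change of -0.31, and of 10 SR genes 4 rose and 3 fell, with a median of 0.01. Throughout, a gene is called, or said to rise or fall, where its p from edgeR's quasi-likelihood test was below 0.05 after Benjamini-Hochberg adjustment over all genes. Over all 12747 genes tested, 71% were called, 35.4% rose and 35.7% fell and the median was near 0. The share of hnRNP genes that fell was thus above the background and the shares of SR genes were close to it.

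Hnrnpd, which encodes AUF1, a protein that binds AU-rich elements and acts in mRNA decay, had the largest fall. It was at 218 and 223 CPM in the controls and at 79.3 and 82.6 CPM at 44 °C. The groups were far apart relative to their spread, and the log2 fold change was -1.45 ± 0.04 (SE, edgeR adjusted p = 4.54e-12). Its relative Hnrnpdl, from a neighbouring gene, was at 190 and 182 CPM in controls and 140 and 144 CPM at 44 °C (log2 fold change -0.39). Hnrnpa1 was at 764 and 772 CPM in controls and 528 and 534 CPM at 44 °C, a change of -0.53. Hnrnpc, a core hnRNP that coats nascent RNA, moved the other way, from 287 and 275 to 408 and 405 CPM, the largest rise of the family (log2 fold change 0.53 ± 0.04, edgeR adjusted p = 4.69e-08). Hnrnpm, Hnrnph3 and Hnrnpul2 were the other 3 hnRNP genes that rose. The Hnrnpul2 call (0.14) was lost without heat control replicate 1 (0.08) and on log2(TPM + 1) (0.09).

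Among SR genes Srsf7, whose protein also acts in mRNA export, was at 164 and 158 CPM in heat controls and 222 and 239 CPM at 44 °C. This was the largest rise of the SR family (log2 fold change 0.52 ± 0.04, edgeR adjusted p = 1.39e-07). Srsf5 was at 228 and 222 CPM in controls and at 146 and 166 CPM at 44 °C. All treated values were below both controls, as the choice of genes described in full required. The log2 fold change was -0.53 ± 0.05 (edgeR adjusted p = 6.20e-07), the largest fall of the SR family. Srsf6 (-0.27) and Srsf9 (-0.11) also fell, and Srsf2 (0.10), Srsf10 (0.20) and Srsf11 (0.21) rose. The Srsf2 and Srsf9 calls were lost without either control library (0.08 and 0.10 for Srsf2, -0.11 in both cases for Srsf9), without 44 °C replicate 2 (0.08 and -0.09) and on log2(TPM + 1) (0.05 and -0.05).

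Promoter sequences of the gene with the largest fall at 44 °C and of the SR gene with the largest rise there are shown here, with that of Hnrnpa2b1, which was picked for its sequence as the only member with a longer heat shock motif. They are the RefSeq windows of assembly GRCm38.p6 from 250 bases before to 50 after a transcript start, all on the minus strand and written 5′ to 3′. The windows are Hnrnpd at chr5:99978889-99979188, Srsf7 at chr17:80207256-80207555 and Hnrnpa2b1 at chr6:51469845-51470144, and capitals mark matches to the motifs listed after them.
Hnrnpd: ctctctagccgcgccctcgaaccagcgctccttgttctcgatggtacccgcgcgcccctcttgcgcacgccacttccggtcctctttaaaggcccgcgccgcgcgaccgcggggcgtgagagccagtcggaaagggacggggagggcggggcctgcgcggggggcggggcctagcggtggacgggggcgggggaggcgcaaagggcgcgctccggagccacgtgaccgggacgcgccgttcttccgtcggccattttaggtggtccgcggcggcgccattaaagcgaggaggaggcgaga
Srsf7: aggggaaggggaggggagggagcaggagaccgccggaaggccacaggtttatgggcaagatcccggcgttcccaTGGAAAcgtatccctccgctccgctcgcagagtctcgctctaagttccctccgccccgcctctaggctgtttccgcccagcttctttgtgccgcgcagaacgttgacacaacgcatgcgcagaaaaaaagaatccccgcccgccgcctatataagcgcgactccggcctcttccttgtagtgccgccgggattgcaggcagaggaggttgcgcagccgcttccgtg
Hnrnpa2b1: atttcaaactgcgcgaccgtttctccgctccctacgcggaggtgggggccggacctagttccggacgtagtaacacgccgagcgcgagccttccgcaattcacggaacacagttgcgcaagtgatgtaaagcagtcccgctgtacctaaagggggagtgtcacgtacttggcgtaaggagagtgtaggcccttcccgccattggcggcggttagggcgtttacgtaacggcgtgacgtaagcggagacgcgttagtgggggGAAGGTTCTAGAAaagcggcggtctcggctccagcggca
Motifs were searched on both strands, and 29 of the 31 genes had 41 windows in the table (Hnrnpll and Hnrnpul2 had none). GAANNTTC, a pair of the inverted units bound by the heat shock factor HSF1, occurred in 5 of those 41 windows (4 genes, Hnrnpa2b1, Hnrnpf, Hnrnpl and Srsf9) and in 7.86% of all 32851 windows. The same letters followed by NNGAA, one more unit that makes a longer motif, occurred in 2 of the 41 windows, both of Hnrnpa2b1, and in 0.603% of all windows, and its match begins at base 12 after the start. TGACNNNGC, the core of the antioxidant response element, was found in 12 of the 41 windows (9 genes) and in 12.4% of all windows. TGGAAA, a core bound by the osmotic stress factor NFAT5, was found in 5 of the 41 windows (5 genes) and in 21.4% of all windows, and in Srsf7 it begins 176 bases before the start. None of the 4 motifs was in the Hnrnpd window. A match is a description of the letters only. Hnrnpa2b1 was at 1086 and 1075 CPM in heat controls, 1027 and 1047 CPM at 44 °C (log2 fold change -0.06, edgeR adjusted p = 0.180) and 1357 and 1337 CPM at 42 °C (0.32, adjusted p = 6.24e-06).

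At 42 °C for 8 h most genes of both families were higher. Of 20 hnRNP genes 17 rose and 1 fell (median log2 fold change 0.29), and of 10 SR genes 8 rose and 1 fell (median 0.26), where 63.6% of 12747 genes were called, 31.7% rose and 31.9% fell (median -0.01). On the scale of log2(TPM + 1), tested with limma, the median of all genes moved to -0.16 and fewer members were called higher. On that scale 11 hnRNP genes were higher and 3 lower, and 4 SR genes were higher and 2 lower. Relative to the shifted median of all genes, the medians there were 0.27 for hnRNP and 0.26 for SR genes.

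Hnrnpll, a regulator of alternative splicing best known from lymphocytes, had the largest rise at 42 °C, from 105 and 102 CPM to 161 and 156 CPM (log2 fold change 0.61 ± 0.04, edgeR adjusted p = 2.02e-08). Hnrnph2 was the hnRNP gene that fell, from 170 and 176 to 127 and 129 CPM (-0.43 ± 0.04, edgeR adjusted p = 6.31e-07). Srsf7 again had the largest rise of the SR family, to 224 and 220 CPM (0.46 ± 0.04, edgeR adjusted p = 7.17e-07). Srsf5 was the SR gene that fell, to 184 and 188 CPM (-0.28 ± 0.05, edgeR adjusted p = 0.000382). For both SR genes the heated libraries lay on one side of both controls at both temperatures, as the choice of genes described in full required.

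The 2 heat treatments, which differ in temperature and in duration at once, were also compared directly. At 42 °C for 8 h, relative to 44 °C for 2 h, 15 hnRNP genes were higher and 1 was lower (median 0.60), and 7 SR genes were higher and 0 lower (median 0.24). Over all genes 75.1% were called, with 37.9% higher and 37.2% lower. Hnrnpd had the largest difference, with 268 and 271 CPM at 42 °C against 79.3 and 82.6 CPM at 44 °C (log2 difference 1.73 ± 0.04, edgeR adjusted p = 3.64e-13). The opposite extreme was Hnrnph2 (-0.46 ± 0.04, edgeR adjusted p = 1.34e-07). The SR side of this comparison depended on the scale: on log2(TPM + 1), where the median of all genes was -0.20, 2 SR genes were called higher of 5 called, and the SR median was -0.02. The hnRNP median there stayed above 0, at 0.32, with 13 of 18 called genes higher.

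**Figure D2:**
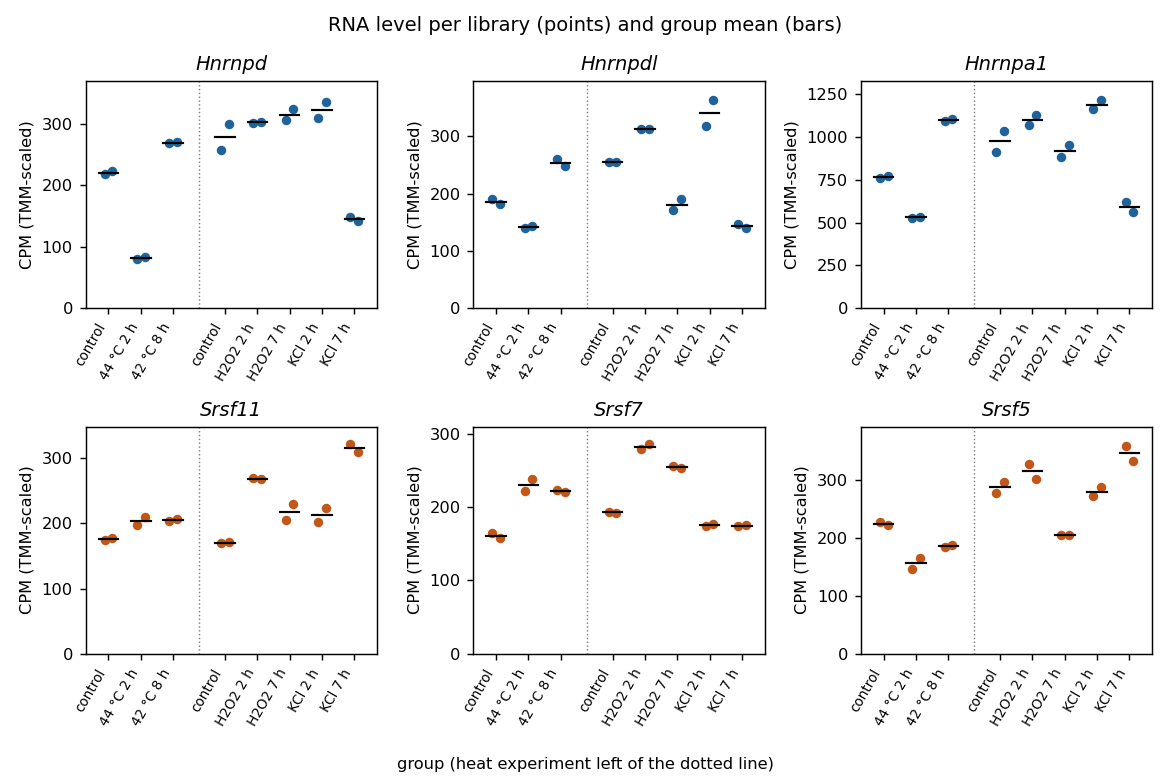
RNA level in CPM of Hnrnpd, Hnrnpdl, Hnrnpa1, Srsf11, Srsf7 and Srsf5, by group. Each point is a library and each bar the mean of 2 libraries. Groups left of the dotted line are the heat experiment, groups right of it the H2O2 and KCl experiment, each with its own control. Hnrnpd, Hnrnpdl and Hnrnpa1 are below their controls at 44 °C and at 7 h of KCl, and Srsf11 is highest at 7 h of KCl.

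Few of the genes changed with H2O2 at 2 h. Of 20 hnRNP genes 3 rose and 3 fell (median log2 fold change 0.05), and of 10 SR genes 4 rose and 0 fell (median 0.12), where 53.9% of 13256 genes were called, 27.3% rose and 26.5% fell. At an unadjusted p below 0.05 no SR gene was lower either, and by DESeq2 the number of SR genes called was the same. The SR genes that rose were Srsf11, Srsf7, Srsf10 and Srsf6, the last of these (0.24) not without either H2O2 2 h library (0.20 and 0.21). Srsf11, which encodes an SR-like protein with an arginine- and serine-rich tail, was at 169 and 171 CPM in controls and 269 and 269 CPM after 2 h (log2 fold change 0.66 ± 0.07, edgeR adjusted p = 2.14e-06). Srsf7 was at 193 and 192 CPM in controls and 279 and 286 CPM after 2 h (0.55 ± 0.05). Hnrnpu, whose nuclear scaffold protein binds chromatin and RNA, had the largest rise of the hnRNP genes, from 734 and 791 to 953 and 994 CPM (0.35 ± 0.07, edgeR adjusted p = 0.000512). Hnrnpul2 had the largest fall, from 301 and 359 to 269 and 262 CPM (-0.31 ± 0.07, edgeR adjusted p = 0.00273). That call was lost without control replicate 2, where the log2 fold change was -0.18.

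The hnRNP genes were mostly lower at 7 h of H2O2. Of 20, 4 rose and 12 fell (median -0.27), and of 10 SR genes 4 rose and 3 fell (median 0.04), where 70.5% of genes were called, 39.4% rose and 31.1% fell (median 0.08). On log2(TPM + 1) the split of the hnRNP genes was 1 higher and 14 lower, and that of the SR genes 4 and 4. Hnrnpl, a splicing regulator that binds CA repeats, was at 343 and 370 CPM in controls and 224 and 228 CPM at 7 h, the largest fall (log2 fold change -0.66 ± 0.06, edgeR adjusted p = 2.89e-07). Hnrnpf had the largest rise, from 673 and 682 to 811 and 819 CPM (0.27 ± 0.05, edgeR adjusted p = 0.000520). Hnrnpf and Hnrnph2 encode closely related proteins that bind runs of G, and Hnrnph2 moved the other way, from 182 and 188 to 119 and 120 CPM (-0.63).

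Among SR genes Srsf4 was at 99.7 and 109 CPM in controls and 156 and 161 CPM at 7 h of H2O2 (0.61 ± 0.08, edgeR adjusted p = 6.16e-06). Srsf5 was at 277 and 297 CPM in controls and 205 and 205 CPM at 7 h (-0.48 ± 0.07, edgeR adjusted p = 1.35e-05). Both were the extremes of the SR family, chosen among called genes whose treated and control libraries did not overlap.

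Between 2 h and 7 h of H2O2, compared directly, 8 SR genes were lower and 1 higher at 7 h (median -0.19), and 13 hnRNP genes were lower and 1 higher (median -0.22), where 73.4% of genes were called, 36.1% lower and 37.3% higher. The largest difference downward was in Hnrnpdl, with 312 and 313 CPM at 2 h and 171 and 190 CPM at 7 h (-0.79 ± 0.07, edgeR adjusted p = 2.02e-07). Srsf4 was the SR gene that was higher (0.50 ± 0.08, edgeR adjusted p = 4.38e-05). These counts leaned on single libraries: without H2O2 7 h replicate 1, 4 SR and 9 hnRNP genes were called, and without H2O2 2 h replicate 2, 5 and 9.

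With KCl for 2 h most hnRNP genes were higher. Of 20, 16 rose and 1 fell (median log2 fold change 0.26), and of 10 SR genes 3 rose and 2 fell (median 0.08), where 54.2% of 13256 genes were called, 27.2% rose and 27% fell. Without control replicate 1 the number of hnRNP genes called was 11, and without control replicate 2 the number of SR genes called was 3. On log2(TPM + 1) 11 hnRNP genes were higher and 1 lower, and 3 SR genes were higher and 3 lower. Hnrnpu had the largest rise, from 734 and 791 CPM in controls to 1136 and 1211 CPM (0.62 ± 0.07, edgeR adjusted p = 2.73e-06). Hnrnph1, from the same G-run binding subfamily as Hnrnpf, was at 449 and 489 CPM in controls and 656 and 717 CPM after 2 h (0.55). Hnrnpul1 was the hnRNP gene that fell, from 236 and 260 to 200 and 197 CPM (-0.32 ± 0.06, edgeR adjusted p = 0.000782). Srsf10, which encodes a repressive SR protein, had the largest SR rise, from 160 and 161 to 201 and 228 CPM (0.42 ± 0.06, edgeR adjusted p = 8.80e-05). Srsf4 was the SR gene with the largest fall, from 99.7 and 109 to 97.0 and 83.1 CPM (-0.21 ± 0.08, edgeR adjusted p = 0.0338), and that call was lost without control replicate 2 (-0.15), without KCl 2 h replicate 2 (-0.10) and in a fit of the 2 groups alone (-0.21).

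The balance of the hnRNP genes was the reverse at 7 h of KCl. Of 20, 4 rose and 12 fell (median -0.27), and of 10 SR genes 6 rose and 3 fell (median 0.20), where 68.8% of genes were called, 37.2% rose and 31.6% fell (median 0.04). The SR count of 9 became 4 without KCl 7 h replicate 1 and 5 without control replicate 1, and on log2(TPM + 1) 3 SR genes were higher and 3 lower. The hnRNP split on that scale was 3 higher and 13 lower.

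Hnrnpd had the largest fall, from 257 and 300 CPM in controls to 148 and 141 CPM (log2 fold change -0.94 ± 0.08, edgeR adjusted p = 7.38e-08). Hnrnpdl was at 255 and 255 CPM in controls and 147 and 140 CPM (-0.83), and Hnrnpa1 went from 916 and 1035 to 624 and 562 CPM (-0.72). These 3 genes had thus the lowest levels of the experiment in both KCl 7 h libraries. Hnrnpf had the largest hnRNP rise, to 939 and 959 CPM (0.49 ± 0.05, edgeR adjusted p = 2.11e-06), and Hnrnpu (0.39), Hnrnph2 (0.27) and Hnrnpa2b1 (0.18) also rose, the last of these calls being lost without control replicate 1 or KCl 7 h replicate 1 (0.13 each) and on log2(TPM + 1) (0.14). Srsf11 had the largest rise in RNA of all members in any comparison with a control, from 169 and 171 to 322 and 310 CPM (0.89 ± 0.07, edgeR adjusted p = 5.26e-08). Srsf3, the smallest classical SR protein, was at 400 and 393 CPM in controls and 273 and 258 CPM at 7 h (-0.58 ± 0.07, edgeR adjusted p = 2.65e-06). Srsf3 was the SR gene with the largest fall and was not called by edgeR in the other 5 comparisons with a control. In TPM, however, it was at 220 and 213 at 42 °C, against 264 and 259 in heat controls. At 2 h of KCl it was at 274 and 312 TPM, against 340 and 337 in controls. At 2 h of H2O2 it was above both of these controls, at 362 and 369 TPM.

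Compared directly, 15 hnRNP genes were lower and 2 higher at 7 h than at 2 h of KCl (median -0.50), and 3 SR genes were higher and 2 lower (median -0.03), where 68.8% of genes were called, 33.7% lower and 35.1% higher. Hnrnpdl had the largest difference, from 318 and 363 CPM at 2 h to 147 and 140 CPM at 7 h (-1.24 ± 0.07, edgeR adjusted p = 3.29e-09). Srsf11 had the largest difference upward (0.56 ± 0.07, edgeR adjusted p = 4.85e-06).

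**Figure D3:**
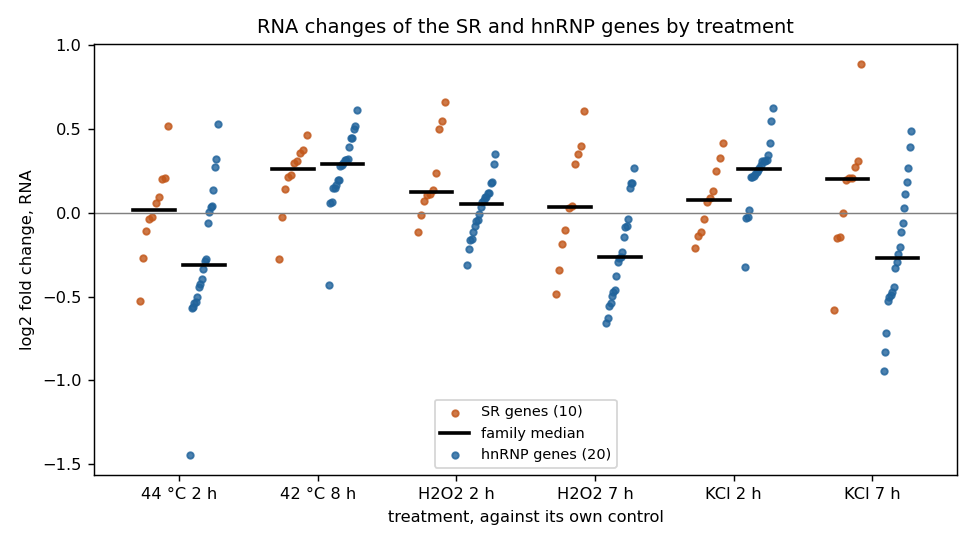
Log2 fold changes in RNA of each SR gene (10, orange) and hnRNP gene (20, blue) for 6 treatments against their own controls, with the family median as a black bar. The hnRNP medians are -0.31, 0.29, 0.05, -0.27, 0.26 and -0.27 from left to right, and the SR medians lie between 0.01 and 0.26.

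H2O2 and KCl were set against each other at equal times. At 2 h, 12 hnRNP genes were lower with H2O2 than with KCl and 0 were higher, and 5 SR genes were higher and 0 lower, where 51.3% of genes were called, 24.2% lower and 27% higher. The hnRNP count was 7 on log2(TPM + 1), of which 1 was higher, and the SR count was 3 without H2O2 2 h replicate 1 or without KCl 2 h replicate 1. Srsf7 had the largest difference upward (0.69 ± 0.05, edgeR adjusted p = 1.44e-07): it was above both controls with H2O2 (279 and 286 CPM) and below both with KCl (173 and 176 CPM). Hnrnph1 had the largest difference downward (-0.55 ± 0.07, edgeR adjusted p = 1.34e-05). At 7 h, 6 hnRNP genes were higher with H2O2 and 8 lower, and 3 SR genes were higher and 5 lower, where 78.4% of genes were called, 41% higher and 37.4% lower. Hnrnpd was at 306 and 324 CPM with H2O2 against 148 and 141 CPM with KCl (1.12 ± 0.08, edgeR adjusted p = 5.05e-09). Hnrnph2 had the opposite difference, with 119 and 120 CPM against 225 and 219 CPM (-0.89 ± 0.06, edgeR adjusted p = 7.37e-09).

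The response to 44 °C at 2 h was compared with the responses to H2O2 and KCl at 2 h in a model over all 16 RNA libraries, as the difference of 2 changes each taken against its own control. Relative to H2O2, 13 hnRNP genes responded with a lower change to heat and 3 with a higher one, and 4 SR genes with a lower and 0 with a higher one, where 58% of 13597 genes were called, 33.7% lower and 24.3% higher (median of all genes -0.11). Relative to KCl, 15 hnRNP genes were lower and 1 higher, and 4 SR genes were lower and 1 higher. Over all genes 62% were called there, 34.4% lower and 27.6% higher (median of all genes -0.08). The SR count of 5 in that comparison became 3 without heat control replicate 1 or 44 °C replicate 2. Hnrnpd had the largest difference in both, at -1.61 ± 0.09 against H2O2 (edgeR adjusted p = 1.36e-10) and -1.70 ± 0.09 against KCl (edgeR adjusted p = 5.72e-11). The largest differences upward were Hnrnpul2 against H2O2 (0.40 ± 0.09, edgeR adjusted p = 0.00117) and Srsf7 against KCl (0.62 ± 0.07, edgeR adjusted p = 3.72e-07). Family medians moved when 1 library was left out. Against KCl the SR median of -0.18 ranged from -0.19 to -0.05, and the hnRNP median of -0.56 from -0.59 to -0.41. Against H2O2 the SR median of -0.16 ranged from -0.18 to -0.07, and the hnRNP median of -0.33 from -0.35 to -0.18. Without heat control replicate 1 the median of all genes was -0.02 against H2O2 and 0 against KCl. Heat had its own control and experiment, so an effect of the experiment that changes a response cannot be told apart from the agent.

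Across the 6 comparisons with a control, of which the heat pair and the H2O2 and KCl set each share control libraries, single genes kept distinct patterns. Srsf10 and Srsf11 rose in each of the 6, by 0.20 to 0.50 and 0.21 to 0.89 on the log2 scale, although for Srsf11 at 42 °C the call was lost on log2(TPM + 1) (0.08). Srsf7 rose with heat and H2O2 (4 comparisons, up to 0.55) and fell with KCl at both times (-0.14 and -0.15), where each of these calls was lost when any 1 of its 4 libraries was left out (-0.13 to -0.15). Hnrnpu rose in 5 comparisons and Hnrnpf in 4, and neither fell in any, although Hnrnpf at 42 °C changed sign on log2(TPM + 1) (-0.04, not called). The Hnrnpu call at 7 h of H2O2 was lost without either H2O2 7 h library or control replicate 1 (0.10 to 0.17). Hnrnpul1 fell in 4 and rose in 0, and its fall at 2 h of H2O2 was lost without H2O2 2 h replicate 1 (-0.17) or control replicate 2 (-0.10). Hnrnpc rose in 5 and fell at 7 h of KCl (-0.25), with H2O2 calls that rested on single libraries. The rise at 7 h was lost when any 1 of the 4 libraries was left out (0.10 to 0.16) and by DESeq2 (0.11), and that at 2 h without either H2O2 2 h library (0.15 each) or control replicate 2 (0.16). Its rise at 2 h of KCl was lost on log2(TPM + 1) (0.12). Hnrnpdl passed the test in all 6, with 3 rises and 3 falls from -0.83 to 0.45. Hnrnpd had the widest range of any member, from -1.45 to 0.29. On log2(TPM + 1) its calls for a rise at 42 °C (0.08), 2 h of KCl (0.10) and 7 h of H2O2 (0.11) were lost. That at 2 h of KCl was also lost without control replicate 1 (0.11) or KCl 2 h replicate 2 (0.16). That at 7 h of H2O2 was also lost by DESeq2 (0.15) and without either H2O2 7 h library or control replicate 1 (0.07 to 0.14). Values per library hold only shares of polyA-selected RNA, so a loss of RNA per cell in all genes at once would not appear, and fewer cells and less RNA per cell cannot be told apart.

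Genes with related roles were taken from 5 lists of 54 genes in all. Their counts stand against shares of all genes that rose and fell of 35.4% and 35.7% for 44 °C, 31.7% and 31.9% for 42 °C, 27.3% and 26.5% for H2O2 (2 h), 39.4% and 31.1% for H2O2 (7 h), 27.2% and 27% for KCl (2 h) and 37.2% and 31.6% for KCl (7 h). SR kinases phosphorylate the tail of SR proteins. At 44 °C 7 of 8 tested kinases rose and 1 fell (median 0.49), with Clk3 highest, from 40.7 and 38.4 to 73.8 and 78.5 CPM (log2 fold change 0.95), and Srpk2 falling (-0.35). At 7 h of KCl 6 rose and 0 fell (median 0.46), led by Prpf4b (0.85). Clk2 was the 1 kinase that fell with KCl at 2 h, from 34.0 and 35.9 to 13.1 and 11.2 CPM (-1.52), where 4 kinases rose in all, Clk4 most (0.92). H2O2 at 7 h gave 2 kinases that rose and 1 that fell, with Clk3 at 1.01 and Srpk2 at -0.86, where 70.5% of all genes were called. Kinases at 42 °C were 5 higher and 2 lower (median 0.29), and 3 and 3 on log2(TPM + 1), with Clk4 (0.82) and Clk1 (-0.63) as extremes. At 2 h of H2O2 4 rose and 2 fell.

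Other splicing proteins with arginine- and serine-rich stretches outside the Srsf names numbered 19. With KCl at 7 h 13 rose and 4 fell (median 0.50), where 37.2% of all genes rose and 31.6% fell, from Srek1 (1.42) to Rsrc1 (-1.41), and at 2 h 10 rose and 2 fell (6 and 3 on log2(TPM + 1)). With H2O2 13 rose and 1 fell at 2 h (median 0.26) and 8 rose and 5 fell at 7 h, with Rbm39 (0.80) and Tra2a (0.69) as the largest rises. At 44 °C 9 rose and 6 fell, from Pnn (0.95) to Rsrc1 (-1.17), and at 42 °C 13 rose and 3 fell (9 and 5 on log2(TPM + 1)). Rsrc1, whose protein takes part in pre-mRNA splicing, fell to 15.9 and 15.1 CPM at 44 °C from 34.8 and 34.9 CPM, and to 12.9 and 10.9 CPM at 7 h of KCl from 30.9 and 32.7 CPM.

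The 13 genes of the hnRNP class that lack the Hnrnp prefix were split in most comparisons. With heat, 5 rose and 6 fell under the 44 °C treatment, where 71% of all genes were called, and 7 rose and 1 fell under the milder one (3 and 5 on log2(TPM + 1)). With H2O2, 2 rose and 4 fell by 2 h, and 2 rose and 6 fell by 7 h. With KCl, 4 rose and 2 fell by 2 h, and 6 rose and 4 fell by 7 h (4 and 5 on log2(TPM + 1)). Rbmx, an X-linked member of the class, had the largest fall of this list in both heat treatments (-0.74 and then -0.20 for the milder one) and at both KCl times (-0.39, then -0.81). Factors of nonsense-mediated decay, 10 genes, gave 5 rises and 4 falls at 44 °C and 6 rises and 1 fall at 42 °C (3 and 2 on log2(TPM + 1)). For H2O2 they gave 4 rises and 1 fall, then 6 rises and 1 fall, and for KCl 5 rises and 2 falls, then 8 rises and 1 fall, with 2 h named first. The kinase gene Smg1 had the largest rise of these at 7 h of KCl (1.53). Of 3 carriers that import SR proteins or hnRNPs into the nucleus, 3 rose at 7 h of KCl (median 0.76), led by Tnpo1 (0.82). On log2(TPM + 1) 2 of them rose there. At 7 h of H2O2 2 carriers rose, and Tnpo2 went from 190 and 203 to 436 and 434 CPM (1.15). Tnpo2 (0.39) was the 1 carrier that rose at 44 °C and Tnpo3 (0.16) the 1 that rose at 42 °C. At 42 °C 0 carriers rose and 1 fell on log2(TPM + 1), while 2 rose with RLE scaling. Tnpo2 fell at 2 h with H2O2 (-0.26) and with KCl (-0.16), and Tnpo1 rose at 2 h of KCl (0.40). On log2(TPM + 1) 0 carriers rose and 1 fell at 2 h of KCl.

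**Figure D4:**
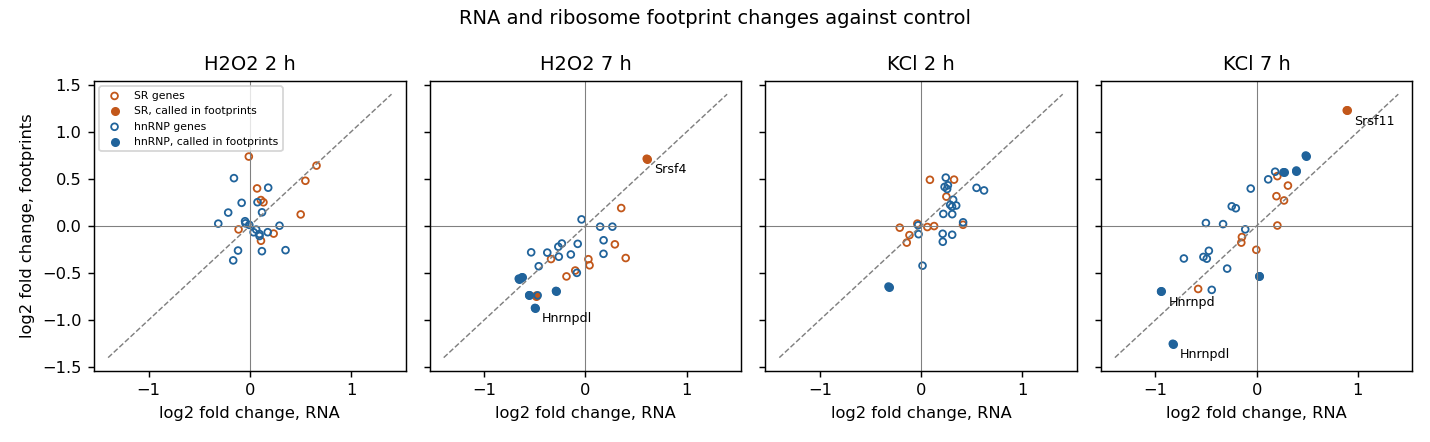
Log2 fold change in ribosome footprints (vertical axis) against that in RNA (horizontal axis) for the 30 members at each H2O2 and KCl time, both against control. Filled points passed the test in footprints and the dashed line marks equal change. Srsf11 and Hnrnpdl at 7 h of KCl are the farthest from 0.

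Footprints, which follow how much of an mRNA is being translated, passed the test for fewer members. Standard errors were larger in these shallower libraries. With H2O2 at 2 h no member of 30 was called in footprints (edgeR; 2 SR and 1 hnRNP genes at an unadjusted p below 0.05, and 0 by DESeq2), where 1.91% of 10545 genes were called, 1.14% higher and 0.768% lower. At 7 h 1 SR gene rose and 1 fell and 0 hnRNP genes rose and 5 fell, where 27.7% of genes were called, 17.2% rose and 10.6% fell. The SR count of 2 was 0 or 1 and the hnRNP count of 5 was 2 or 3 when any 1 library was left out, and on log2(TPM + 1) the hnRNP count was 0. With KCl at 2 h Hnrnpul1 fell (-0.64 ± 0.18, edgeR adjusted p = 0.0437) and no other member was called, where 6.86% were called, 1.79% rose and 5.06% fell. That call was lost when any 1 of its 4 libraries was left out and under each other alternative that was tried (adjusted p = 0.0514 to 0.233). At 7 h 1 SR gene rose and 3 hnRNP genes rose and 3 fell, where 20.4% were called, 10.5% rose and 9.83% fell. The hnRNP count of 6 was 1 or 2 when any 1 library was left out.

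Srsf11 footprints were at 77.0 and 84.6 CPM in controls and 190 and 189 CPM at 7 h of KCl. The log2 fold change was 1.23 ± 0.18 (edgeR adjusted p = 0.000811), and the call was kept without any 1 library. Hnrnpdl was at 142 and 116 CPM in controls and 47.3 and 60.4 CPM at 7 h of KCl (-1.25 ± 0.22, edgeR adjusted p = 0.00193), also kept. At 7 h of H2O2 Hnrnpdl was at 80.6 and 60.2 CPM (-0.87 ± 0.21, edgeR adjusted p = 0.00764), a call lost without H2O2 7 h replicate 2 (-0.72) or control replicate 1 (-0.76). Srsf4 was at 37.2 and 49.2 CPM in controls and 64.9 and 76.6 CPM at 7 h of H2O2 (0.71 ± 0.24, edgeR adjusted p = 0.0407), a call lost when any 1 of these 4 libraries was left out (0.48 to 0.92). The other members called at 7 h of H2O2 were Srsf5 (-0.74), Hnrnpul1 (-0.74), Hnrnpr (-0.69), Hnrnpl (-0.56) and Hnrnph2 (-0.55). With KCl at 7 h they were Hnrnpf (0.75), Hnrnpu (0.59), Hnrnph2 (0.57), Hnrnpd (-0.70) and Hnrnpul1 (-0.54).

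Most members that changed in RNA had a footprint change of the same sign, although few passed both tests. At 7 h of KCl 9 of 9 SR genes and 12 of 16 hnRNP genes called in RNA had footprints of the same sign, and at 7 h of H2O2 5 of 7 and 12 of 16. At 2 h the counts were 5 of 5 and 14 of 17 for KCl and 3 of 4 and 3 of 6 for H2O2. The matching share over all genes called in RNA was not computed, so these counts do not set the members apart from other genes. Between 2 h and 7 h of H2O2 the footprints of 4 SR and 6 hnRNP genes were lower and of 1 SR gene (Srsf4, 0.87 ± 0.25, edgeR adjusted p = 0.0184) higher, where 29.8% of genes were called, 11.1% lower and 18.7% higher. The SR count of 5 was 3 without H2O2 2 h replicate 1 or H2O2 7 h replicate 2 and 2 without H2O2 7 h replicate 1, and the hnRNP count of 6 was 3 and 2 without H2O2 7 h replicates 2 and 1. The Srsf4 call was lost without H2O2 2 h replicate 2 (0.64) or either H2O2 7 h library (0.71 and 0.94). Srsf2 had the largest difference downward (-1.27 ± 0.40, edgeR adjusted p = 0.0310), but its replicates were far apart, with 779 and 315 CPM at 2 h of H2O2 and 216 and 437 CPM in controls, and without H2O2 2 h replicate 1 the difference was -0.49 and not called. Between 2 h and 7 h of KCl, 1 SR gene (Srsf11, 0.74 ± 0.18, edgeR adjusted p = 0.0137) and 1 hnRNP gene were higher and 2 hnRNP genes lower (Hnrnpdl lowest, -1.29 ± 0.22, edgeR adjusted p = 0.00202), where 20.6% were called, 12.1% higher and 8.43% lower. The Srsf11 call was lost when any 1 of its 4 libraries was left out (0.64 to 0.84), and then 1 hnRNP gene was called.

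In control cells the ratio of footprint to RNA TPM differed widely between members. Its median was 1.15 for SR genes and 0.834 for hnRNP genes, with each gene taken as the mean of 2 replicates. Over 10854 genes with at least 1 TPM in both control RNA libraries it was 0.603. The tested members had a mean of 83.1 TPM or more in that RNA, so the wider set also holds genes at lower levels. Hnrnpd was highest, at 3.97 and 3.03 in the 2 replicates, followed by Srsf1 (3.07 and 3.42) and Srsf3 (2.49 and 3.15). Hnrnpul1 (0.259 and 0.266) and Srsf4 (0.271 and 0.322) were lowest. The gene lengths behind the TPM values are the authors' own and differed between RNA and footprints. Mean control levels of Hnrnpd were 278 CPM and 83.1 TPM in RNA, but 288 CPM and 288 TPM in footprints. For Srsf1 they were 433 CPM and 176 TPM, then 393 CPM and 572 TPM. For Srsf3 they were 396 CPM and 339 TPM, then 416 CPM and 954 TPM. The high ratios of these genes thus appear in TPM and not in CPM. The order of genes and the family medians depend on these lengths and do not measure translation alone. Summed SR TPM relative to summed hnRNP TPM was 0.327 and 0.510 in the 2 control footprint libraries, against 0.259 and 0.251 in RNA. The gap between the families in footprints relative to RNA thus differed between the replicates, and it too depends on the gene lengths.

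Translational efficiency, the footprint change relative to the RNA change, was called for 2 members. Hnrnpu fell at 2 h of H2O2 (-0.65 ± 0.16, edgeR adjusted p = 0.0172), where 11.4% of 10480 genes were called, 3.98% rose and 7.46% fell: its RNA went up and its footprints went from 935 and 876 CPM to 712 and 802 CPM. The call was lost without RNA control replicate 1 (-0.60), RNA H2O2 2 h replicate 2 (-0.62) or footprint control replicate 1 (-0.60). Srsf7 fell at 7 h of H2O2 (-0.74 ± 0.20, edgeR adjusted p = 0.0268), where 9.27% were called, 4.69% rose and 4.57% fell. Its footprints were at 204 and 194 CPM in controls and 143 and 172 CPM at 7 h, and the call was lost when any 1 of 7 of its 8 libraries was left out (-0.63 to -0.75). With KCl no member was called at 2 h or 7 h (edgeR, and 0 by limma voom), where 12.8% (3.58% higher, 9.18% lower) and 5.57% (1.69% higher, 3.88% lower) of genes were called. At an unadjusted p below 0.05 there were 0 SR and 2 hnRNP genes at 2 h and 1 and 7 at 7 h, where the hnRNP median was 0.28 and that of all genes 0.01.

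**Figure D5:**
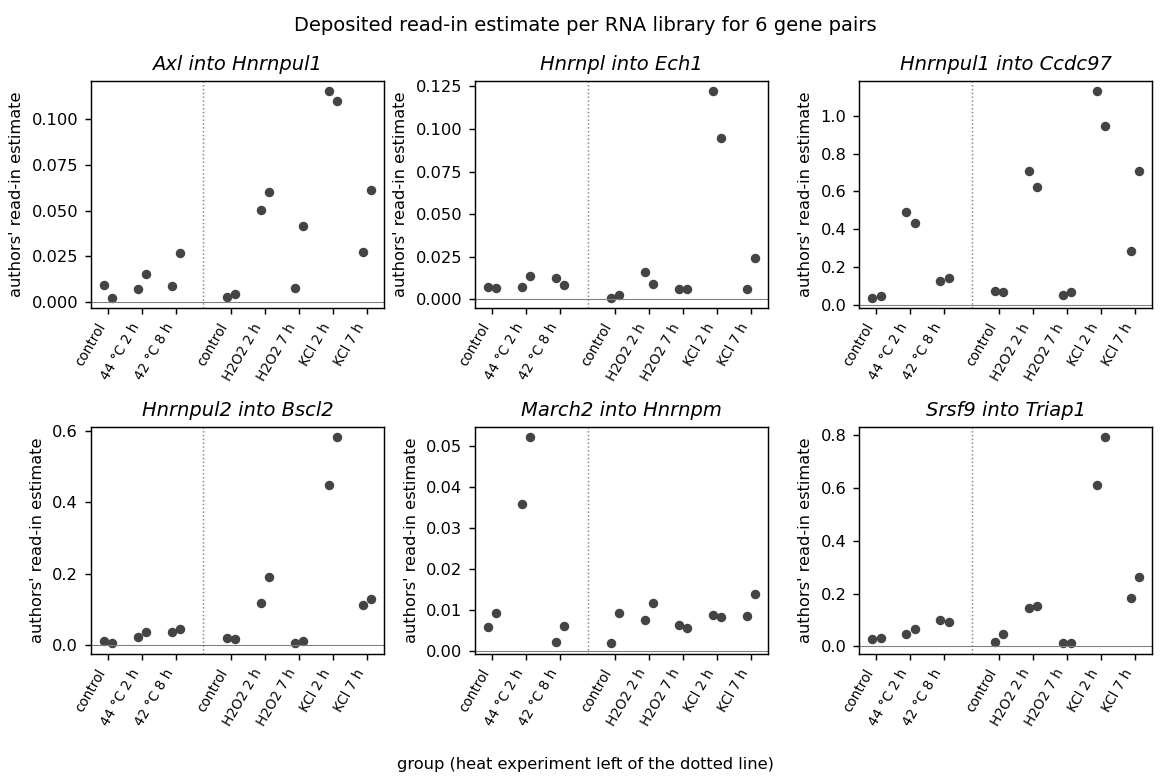
The authors' deposited read-in estimate (a ratio, vertical axes on separate scales) in each RNA library for the 6 pairs of neighbouring genes that hold a member and had a read-in call in some library. Each point is a library. Hnrnpul1 into Ccdc97 is highest at 2 h of KCl, at 1.13 and 0.946, and is at or below 0.0775 in controls.

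Stress-induced transcription past the end of a gene can enter the next gene, and the authors deposited a call and an estimate of such read-in for each of 6399 pairs of neighbouring genes. A member was in 35 pairs, upstream in 23 and downstream in 14, with 2 pairs made of 2 members (Srsf7 with Hnrnpll, and Hnrnpdl with Hnrnpd). No pair with a member had a read-in call in both replicates of either control or at 7 h of H2O2, where 0.516%, 0.453% and 0.391% of all pairs had one in the heat control, the other control and H2O2 in that order. At 2 h of KCl 4 of 35 pairs had one (2.17% of all pairs), at 2 h of H2O2 2 (1.89%), at 44 °C 2 (1.22%), at 7 h of KCl 2 (0.719%) and at 42 °C 1 (0.938%). Calls in at least 1 replicate gave 5, 3, 2, 3 and 1 pairs in the same order, where 3.50%, 3.06%, 2.02%, 1.22% and 1.67% of all pairs had one. They gave 0 in the heat control, the other control and the 7 h H2O2 group, where 0.938%, 0.656% and 0.750% of all pairs had one.

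The pair with most calls was Hnrnpul1 into Ccdc97, called in 10 of 16 RNA libraries. The authors' deposited estimate for it was 0.0388 and 0.0473 in heat controls and 0.493 and 0.433 at 44 °C. In the other experiment it was 0.0775 and 0.0711 in controls, and H2O2 at 2 h gave 0.707 and 0.623. KCl gave 1.13 and 0.946 at 2 h, then 0.286 and 0.707 at 7 h. At 7 h of H2O2 it was 0.0563 and 0.0689, both below the controls. Srsf9 into Triap1 was called in both replicates at 2 h of KCl (0.613 and 0.794) and 7 h of KCl (0.182 and 0.262), against 0.0174 and 0.0454 in controls. Hnrnpul2 into Bscl2 (0.449 and 0.583) and Hnrnpl into Ech1 (0.122 and 0.0948) were called in both replicates at 2 h of KCl.

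Members were themselves the downstream gene in 2 called pairs. Axl into Hnrnpul1 was called in both replicates at 2 h of H2O2 (0.0502 and 0.0603) and in 1 of 2 at 2 h of KCl (0.115 and 0.110), against 0.00281 and 0.00461 in controls. Hnrnpul1 RNA fell in both conditions (-0.16 with H2O2 and -0.32 with KCl). The fall with H2O2 was not kept without H2O2 2 h replicate 1 or without control replicate 2. March2 into Hnrnpm was called in both replicates at 44 °C (0.0358 and 0.0521, against 0.00575 and 0.00929 in controls), where Hnrnpm RNA rose (0.27). The part of read-in in these RNA changes was not tested. The pairs made of 2 members had no read-in call in any library, and the estimate for Hnrnpdl into Hnrnpd was 0 in all 16.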

How the data were processed

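The data are 16 RNA libraries and 10 footprint libraries, 2 per group. The authors deposited expected counts per gene (whole numbers, used as they were) and TPM, with RSEM named in the names of the deposited tables. STAR, RSEM, Bowtie and mm10 are named in the submitters' processing notes, while the sources used here do not give versions, annotation, strand or footprint filters. Reads shared with near-identical copies are divided by estimation, so counts of genes with processed copies, such as Hnrnpa1 and Hnrnpa3, are less certain, as are those of genes that overlap others. The authors deposited DoG (downstream-of-gene transcript) calls and read-in calls and a read-in estimate, a ratio whose formula is not given. A further 12 columns, with names of no labelled sample, stayed out.

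Here, edgeR 4.0.16 (R 4.3.3; TMM, filterByExpr, quasi-likelihood test, Benjamini-Hochberg adjustment over all genes, threshold 0.05) was fitted to the 6 heat RNA libraries, the 10 other RNA libraries, the 10 footprint libraries and, for translational efficiency, an interaction over those 20. CPM are TMM-scaled, and values are ± SE unless SD is named. The SE was derived from the edgeR test, as the absolute log2 fold change divided by the square root of the F statistic. It is thus not independent of the p-value. Scripts were tested on simulated data. Alternatives were DESeq2 1.42.0, limma 3.58.1 on log2(TPM + 1) or with voom, RLE scaling, no filter, a replicate block, a log2 fold change of at least 1 and leaving out each library. Genes described in full were the called members with the largest rise and fall per comparison, family and list. Libraries that did not overlap were asked for only among members in RNA comparisons with a control. Other members may be named. The members and lists were chosen with earlier results of these data known.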

Additional observations from a re-analysis of the deposited data

Results flagged for a closer look

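Direct contrasts found differences between conditions in the response of single genes, each tested with edgeR's quasi-likelihood test in all genes and given here as a log2 difference. Between heat at 42 °C for 8 h and 44 °C for 2 h, Hnrnpd was higher at 42 °C by 1.73, and Hnrnph2 had the opposite difference (-0.46). Between 7 h and 2 h of the same agent, Srsf4 (0.50) and Hnrnpdl (-0.79) were the extremes with H2O2, and Srsf11 (0.56) and Hnrnpdl (-1.24) those with KCl. Between H2O2 and KCl, Srsf7 (0.69) and Hnrnph1 (-0.55) were the extremes at 2 h, and Hnrnpd (1.12) and Hnrnph2 (-0.89) at 7 h. Between the response to 44 °C and those to H2O2 and KCl at 2 h, the extremes were Hnrnpul2 (0.40) and Hnrnpd (-1.61) against H2O2, and Srsf7 (0.62) and Hnrnpd (-1.70) against KCl. Groups had 2 libraries each, so no library could be tested as standing apart from its group.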

How the results depend on the processing

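Of 310 single-gene calls, DESeq2 lost 7 of those it could be set beside, RLE scaling 5, no filter on low counts 5, a fit of the compared groups alone 18 and log2(TPM + 1) 48, and leaving out 1 library lost 215 calls and kept 1197 over all repeats. On log2(TPM + 1) 7 calls, of 5 genes, changed sign. At 42 °C these were Hnrnpf (-0.0372), Hnrnpa3 (-0.0552) and Srsf9 (-0.0485). Between 42 °C and 44 °C they were Hnrnpf (-0.11), Srsf4 (-0.0340), Srsf10 (-0.0564) and Srsf9 (-0.00123). Between 42 °C and 44 °C Hnrnpf was thus called in the opposite direction on that scale (limma adjusted p = 0.0180). With a log2 fold change of at least 1 the counts of SR and hnRNP genes called in RNA, in the comparisons within an experiment, were 0, apart from hnRNP genes at 44 °C (1), between 42 °C and 44 °C (2), between 7 h and 2 h of KCl (3) and between H2O2 and KCl at 7 h (1). In footprints that rule left 1 hnRNP gene at 7 h of KCl, 1 SR gene between 7 h and 2 h of H2O2 and 1 hnRNP gene between 7 h and 2 h of KCl, next to the 1 SR gene at 7 h of KCl, and 0 in the other footprint and efficiency comparisons. On log2(TPM + 1) the hnRNP counts were 7 between H2O2 and KCl at 2 h in RNA, and in footprints 0 at 7 h of H2O2, 0 at 2 h of KCl and 2 between 7 h and 2 h of H2O2. In a fit of the compared groups alone, 3 SR genes were called at 2 h of KCl in RNA, and in footprints 0 hnRNP genes at 2 h of KCl, and 2 SR and 3 hnRNP genes at 7 h of KCl. DESeq2 called in footprints 1 SR gene at 7 h of H2O2, 0 hnRNP genes at 2 h of KCl and 5 between 7 h and 2 h of KCl, and RLE scaling and no filter also gave 0 at 2 h of KCl. The cause of these differences was not tested.

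Leaving out each library in turn moved counts of called genes as follows (lowest to highest). In RNA, SR genes were 3 to 5 at 2 h of KCl, 4 to 6 at 7 h of KCl, 4 to 8 between 7 h and 2 h of H2O2, 3 to 6 between H2O2 and KCl at 2 h and 3 to 7 between the responses to 44 °C and KCl. hnRNP genes were 11 to 18 at 2 h of KCl and 9 to 12 between 7 h and 2 h of H2O2. In footprints, SR genes were 0 to 1 at 7 h of H2O2, 2 to 5 between 7 h and 2 h of H2O2 and 0 to 0 between 7 h and 2 h of KCl. Footprints of hnRNP genes gave 2 to 3 at 7 h of H2O2, 0 to 0 at 2 h of KCl, 1 to 2 at 7 h of KCl, 2 to 5 between 7 h and 2 h of H2O2 and 1 to 1 between 7 h and 2 h of KCl. For translational efficiency, SR genes were 0 to 2 at 2 h and 0 to 1 at 7 h of H2O2, and hnRNP genes 0 to 2 at 2 h of H2O2 and 0 to 3 at 7 h of KCl. The lone library left in a group was taken to vary like the other groups.

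The labels do not say whether replicate numbers pair the samples, and correlations across genes cannot settle it. Deviations of same-numbered libraries correlated at -0.02 to 0.12 in heat RNA and -0.05 to 0.05 in the other RNA. In footprints they correlated at -0.38 to 0.42, and between RNA and footprints at -0.14 to 0.08. With a replicate block 308 of 310 single-gene calls were made and 2 were lost, and the count of hnRNP genes in footprints at 2 h of KCl went from 1 to 0. A search of the symbols for alternative names of members found 0, so it changed no result. The differences between responses to heat and to the other agents were repeated only with a replicate block and with libraries left out.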
